A study of Mus musculus with 12 samples.

Results

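The aldehyde dehydrogenases described here are 10 genes, Aldh1a1, Aldh1a7, Aldh1b1, Aldh1l1, Aldh2, Aldh3a2, Aldh4a1, Aldh6a1, Aldh8a1 and Aldh9a1, taken by symbol from the 27304 genes of a liver RNA-seq count table. They are 10 of the 21 Aldh genes in that table. Transcripts were counted in 12 mouse livers. The Ahr-null groups, labelled Apoe-/-AhR-/-, held 3 males and 3 females, and the control groups, labelled Apoe-/-, held 3 males and 3 females. All mice, controls included, lacked apolipoprotein E, a protein that carries lipids in plasma, and all had spent 12 weeks on the diet labelled HFD. The labels do not give the age of the mice, the Ahr allele or the cells in which it was deleted. The comparison asks how the aryl hydrocarbon receptor, a ligand-activated transcription factor, bears on the liver.

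Aldehyde dehydrogenases oxidise aldehydes to carboxylic acids with NAD or NADP as the acceptor of electrons. The liver carries many of them, since alcohol, lipids, amino acids, folate and retinoids all pass through aldehydes there. Some members work in mitochondria and others in the cytosol or the endoplasmic reticulum, and each has its own preferred substrates. The aryl hydrocarbon receptor is known to switch on a battery of enzymes of foreign-compound metabolism by binding DNA at a short core motif, and Aldh3a1, which is not among the 10 genes, is a classical member of that battery.

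Gene positions come from the GENCODE annotation of GRCm38, the build named in the submitters' processing notes. Aldh1b1 (ENSMUSG00000035561) lies on the plus strand of chromosome 4 from 45799022 to 45804604. Aldh1a1 (ENSMUSG00000053279) and Aldh1a7 (ENSMUSG00000024747) are neighbours on chromosome 19, with 49487 bases between them and opposite strands. Aldh1a1 covers 20492715 to 20643465 on the plus strand and Aldh1a7 covers 20692953 to 20727562 on the minus strand. Their longest reading frames were 91.63% identical, whereas the other 44 pairs among the 10 genes ranged from 35.85% to 69.5%. Aldh1b1 and Aldh2 formed the closest of those other pairs.

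Promoter windows were taken from RefSeq (GRCm38.p6), and the 250 bases before the start are printed for 3 genes. Aldh1b1 is shown because it was the member called for genotype, and Aldh1a1 and Aldh1a7 because their upstream sequences resemble each other. In the Aldh1a1 and Aldh1a7 lines, capitals mark runs of at least 10 bases that are identical in the alignment of the pair. The windows are chr4:45798772-45799021 on the plus strand for Aldh1b1, chr19:20601718-20601967 on the plus strand for Aldh1a1 and chr19:20727557-20727806 on the minus strand for Aldh1a7.
Aldh1b1: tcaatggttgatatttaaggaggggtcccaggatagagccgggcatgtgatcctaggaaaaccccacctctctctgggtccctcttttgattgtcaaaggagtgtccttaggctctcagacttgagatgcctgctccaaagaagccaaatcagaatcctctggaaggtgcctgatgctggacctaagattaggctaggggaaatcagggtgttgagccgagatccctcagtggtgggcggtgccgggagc
Aldh1a1: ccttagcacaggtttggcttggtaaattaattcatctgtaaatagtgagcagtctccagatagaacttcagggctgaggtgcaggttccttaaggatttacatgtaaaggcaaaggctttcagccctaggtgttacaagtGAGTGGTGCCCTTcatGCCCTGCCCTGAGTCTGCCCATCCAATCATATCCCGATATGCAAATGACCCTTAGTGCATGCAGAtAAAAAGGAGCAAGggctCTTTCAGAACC
Aldh1a7: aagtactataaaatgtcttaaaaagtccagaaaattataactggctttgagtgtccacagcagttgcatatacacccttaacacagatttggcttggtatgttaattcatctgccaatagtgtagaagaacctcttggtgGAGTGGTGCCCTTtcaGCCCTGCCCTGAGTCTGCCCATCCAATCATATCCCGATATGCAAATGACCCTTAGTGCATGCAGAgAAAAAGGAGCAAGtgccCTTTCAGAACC
The capitals cover 102 of the 250 bases in Aldh1a1 and in Aldh1a7, and they crowd into the part nearest the start. Over the whole windows of 300 bases, which run 50 bases past the start, this Aldh1a1 window was identical to that of Aldh1a7 in 221 of 315 aligned columns (70.2%). The window at the other annotated Aldh1a1 start reached 50.8%. The core motif of the receptor, GCGTG on either strand, was found in 32.4% of 32851 windows of that length in the table. Among the windows of members it was found in 4 of 11. These belonged to 4 of the 9 members that had a window, which were Aldh3a2, Aldh4a1, Aldh6a1 and Aldh9a1. The letters GCGTG and CACGC were absent from the windows of Aldh1b1, Aldh1a1, Aldh1a7, Aldh1l1 and Aldh8a1, and no window was used for Aldh2.

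Library totals ran from 9794253 to 18924880 counts, and each member had between 92 and 15185 counts in each library. Levels below are CPM on library totals multiplied by TMM factors, which ran from 0.579 to 1.53. Ahr-null female replicate 1 and control male replicate 1 stood apart by 20 neural marker genes, which summed to 604 and 339 CPM there, while no other library exceeded 78.4 CPM. Log2 levels of Ahr-null female replicate 1 correlated at 0.805 and 0.811 with its group's other libraries, whereas the other 10 replicate pairs lay between 0.938 and 0.979 across 13641 genes. The 10 hepatocyte markers were present in every group and summed to 26350 to 45970 CPM in Ahr-null males, 29030 to 79190 CPM in Ahr-null females, 21970 to 27850 CPM in control males and 23170 to 26780 CPM in control females. The highest sum was again in Ahr-null female replicate 1. Ahr itself had an averaged log2 fold change of 0.13 ± 0.18 (SE; adjusted p = 0.80), and a gene count does not test the label where transcript is still made. Cyp1a2, a target of the receptor, was lower in Ahr-null livers by a log2 fold change of -3.05 ± 0.36 (adjusted p = 0.0066), and Cyp1a1, another target, by -2.45 ± 0.40 (adjusted p = 0.0148). Cyp1a2 stayed under 0.05 in all 19 alternative settings, and Cyp1a1 was above it in 9, each with 1 liver left out. Limma on the authors' values gave -0.98 for Cyp1a1. Cyp1a1 rested on few counts, with 2 to 7 in each Ahr-null liver and 10 to 22 in each control liver. In bulk tissue, fewer cells of a type and less RNA per cell cannot be told apart.

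Mean levels per length were highest for Aldh2, Aldh1l1 and Aldh8a1. The other members lay lower and close together, and the range of Aldh8a1 over the livers overlapped that of Aldh3a2. Levels are given as CPM per kilobase of annotated exon, as mean ± SD of all 12 livers. Aldh2, the mitochondrial enzyme that clears acetaldehyde formed from ethanol, had 111.8 ± 33.4 CPM per kilobase. Aldh1l1, the cytosolic formyltetrahydrofolate dehydrogenase of folate metabolism, had 67.7 ± 10.5 CPM per kilobase, and Aldh8a1, an enzyme of the kynurenine pathway, had 37.9 ± 7.9 CPM per kilobase. By this length Aldh2 exceeded Aldh1l1, and Aldh1l1 exceeded Aldh8a1, in 12 of 12 livers. Their ranges over the livers still overlapped, with Aldh1l1 as low as 44.6 and Aldh8a1 as high as 50.9 CPM per kilobase.

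The remaining members lay between 26.8 and 13.2 CPM per kilobase in the order Aldh3a2, Aldh1a1, Aldh9a1, Aldh4a1, Aldh1a7, Aldh1b1 and Aldh6a1. Neighbours in that order, Aldh8a1 and Aldh3a2 included, traded places from liver to liver: the one ranked higher led in 5 to 9 of 12 livers. With the longest transcript as the length, Aldh1a1 moved up to 50 and Aldh3a2 to 48.7 CPM per kilobase and changed places, and Aldh1b1 became the lowest at 13.5 CPM per kilobase. Aldh8a1 moved up to 61.5 CPM per kilobase with that length, against 73.2 CPM per kilobase for Aldh1l1. In control female replicates 1 and 3 Aldh8a1 then lay above Aldh1l1.

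**Figure D1:**
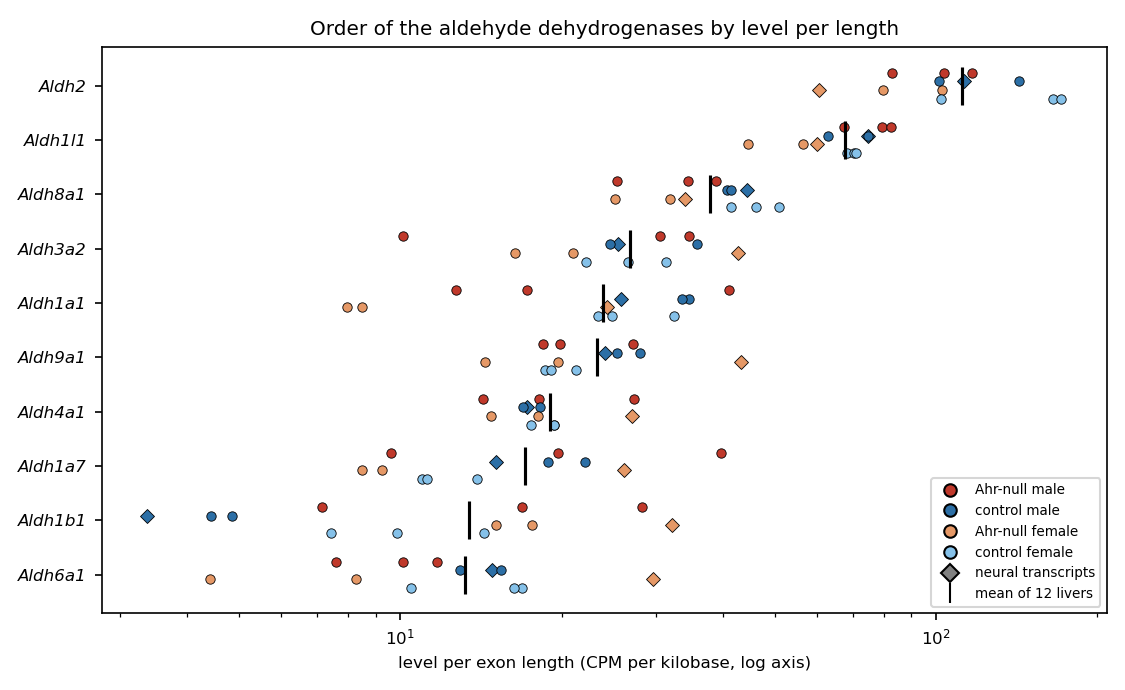
Level of each gene per kilobase of exon in each liver (log axis), with 1 point per liver coloured by group, diamonds for the 2 libraries with neural transcripts and a bar at the mean of 12 livers. The means of Aldh2 and Aldh1l1 lie above those of the others, and the points of Aldh1b1 spread over a 9.53-fold range.

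The members differed in how much they varied. The highest liver exceeded the lowest by 9.53-fold for Aldh1b1, by 6.70-fold for Aldh6a1 and by 5.17-fold for Aldh1a1, whereas Aldh8a1, Aldh4a1 and Aldh1l1 stayed within 2.03-fold. Within every group the same livers were high or low for many members. Ahr-null male replicate 3 was the highest of its group for 9 of the 10 members, and Ahr-null male replicate 2 was the lowest for 6. Ahr-null female replicate 1 was the highest of its group for 9 members and the lowest for Aldh2. In controls, male replicate 2 was the highest of its group for 8 members and female replicate 2 for 7, and female replicate 1 was the lowest for 6. The share of all genes with the same livers highest or lowest was not counted, so these counts do not set the members apart from other genes. The 13 mitochondrial genes took 38.9%, 52.7% and 30.5% of counts (males) and 39.8%, 51.8% and 59.8% (females) of Ahr-null livers. Control livers had 57.3%, 52.3% and 46.7% (males) and 56.5%, 69.8% and 57.3% (females). The part of these shares in the levels was not tested.

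**Figure D2:**
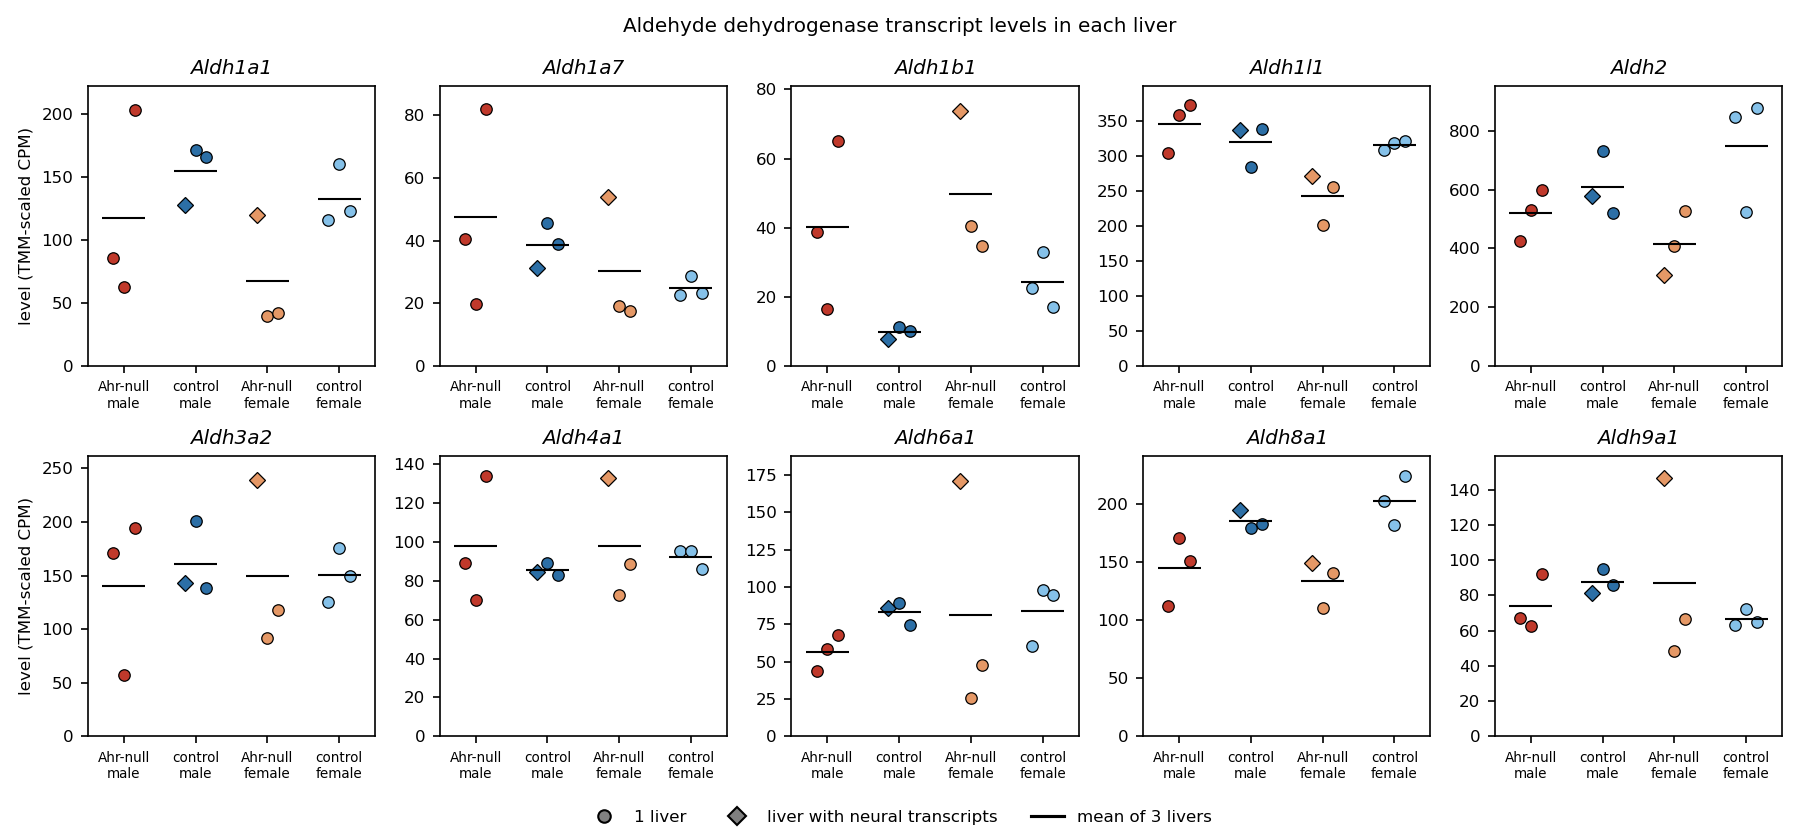
Level of each of the 10 genes in each liver (TMM-scaled CPM), by group, with the mean of 3 livers as a bar and diamonds for the 2 libraries with neural transcripts. Aldh1b1 and Aldh8a1 are the members whose Ahr-null and control livers do not overlap in either sex.

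Of the 10 members, 1 rose and none fell in Ahr-null livers when the genotype effect was averaged over sexes. The member was Aldh1b1, a mitochondrial enzyme known for oxidising acetaldehyde and retinaldehyde. Calls were made at an adjusted p under 0.05 over 13641 genes, of which 1.06% were called (0.528% higher and 0.528% lower). At an unadjusted p under 0.05 there were 3 members, where 15.3% of all genes stood. The median log2 fold change of the members was -0.12, against 0.04 for all genes tested. Without the low-depth Ahr-null female replicate 1, 3 members were called, as given below for Aldh1a1 and Aldh6a1. In that setting 663 of 13877 genes were called, against 144 of 13641 with all livers.

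Aldh1b1 had 38.9, 16.4 and 65.0 CPM in Ahr-null males, against 7.75, 11.2 and 10.2 CPM in control males. In females it had 73.8, 40.4 and 34.6 CPM in Ahr-null livers, against 22.6, 33.0 and 17.1 CPM in control livers. Every Ahr-null liver lay above every control liver of its sex, and the narrowest gap was between an Ahr-null female at 34.6 CPM and a control female at 33.0 CPM. The groups averaged 40.1 ± 24.3 CPM in Ahr-null males, 49.6 ± 21.2 CPM in Ahr-null females, 9.70 ± 1.76 CPM in control males and 24.2 ± 8.06 CPM in control females (SD, n = 3 each). Averaged over sexes, this was a log2 fold change of 1.54 ± 0.32 (SE), with an adjusted p of 0.041 in edgeR's quasi-likelihood test.

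The call on Aldh1b1 was close to its threshold. It was missed when both libraries rich in neural transcripts were dropped (1.29, adjusted p = 0.0529) and in limma on the authors' values (1.35, adjusted p = 0.0587). It was also missed when any one of 10 libraries was left out, with adjusted p from 0.0528 to 0.153 and log2 fold changes from 1.277 to 1.68. It held without Ahr-null male replicate 2 (1.72, adjusted p = 0.00904) and without Ahr-null female replicate 1 (1.36, adjusted p = 0.0264). With all livers it also held in DESeq2 (1.56, adjusted p = 0.000438). In edgeR it held with RLE scaling (adjusted p = 0.0431) and with library size alone (adjusted p = 0.00384). The call was also kept in edgeR with no low-count filter (adjusted p = 0.0359) and in the additive model (adjusted p = 0.0489). The summed level of 7 cholangiocyte markers was 72.1 to 99.8 CPM in Ahr-null males, 70.9 to 269.5 CPM in Ahr-null females, 53.3 to 87.2 CPM in control males and 49.8 to 139.3 CPM in control females. None of the 7 was called, where 1.06% of all genes were. All 7 had positive averaged log2 fold changes (median 0.62), and 1 had an unadjusted p under 0.05 (15.3% of all genes). Of 8 stellate markers all were positive (median 0.40) and Rgs5 was called (1.12 ± 0.20, adjusted p = 0.02). They summed to 292 to 506 CPM in Ahr-null males, 419 to 1103 CPM in Ahr-null females, 238 to 499 CPM in control males and 307 to 456 CPM in control females.

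Of 7 macrophage markers 5 were positive (median 0.11) and Marco was called (2.16 ± 0.34, adjusted p = 0.0148). Their sums were 203 to 315 CPM in Ahr-null males, 239.6 to 282 CPM in Ahr-null females, 150.4 to 175 CPM in control males and 210.4 to 339.8 CPM in control females. Of 7 lymphocyte markers all were positive (median 1.21), none was called and 5 had an unadjusted p under 0.05. They summed to 14.3 to 24.5 CPM in Ahr-null males, 20.5 to 28.0 CPM in Ahr-null females, 6.57 to 16.4 CPM in control males and 13.1 to 19.4 CPM in control females. Of 6 endothelial markers 3 were positive (median -0.08), and of the 10 hepatocyte markers 9 were positive (median 0.34), with none called in either list. Of all genes tested, 54.2% had a positive averaged log2 fold change, 1.06% were called and 15.3% had an unadjusted p under 0.05. No marker of these lists was at 0 in every library, and the part of these cell types in the Aldh1b1 result was not tested.

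**Figure D3:**
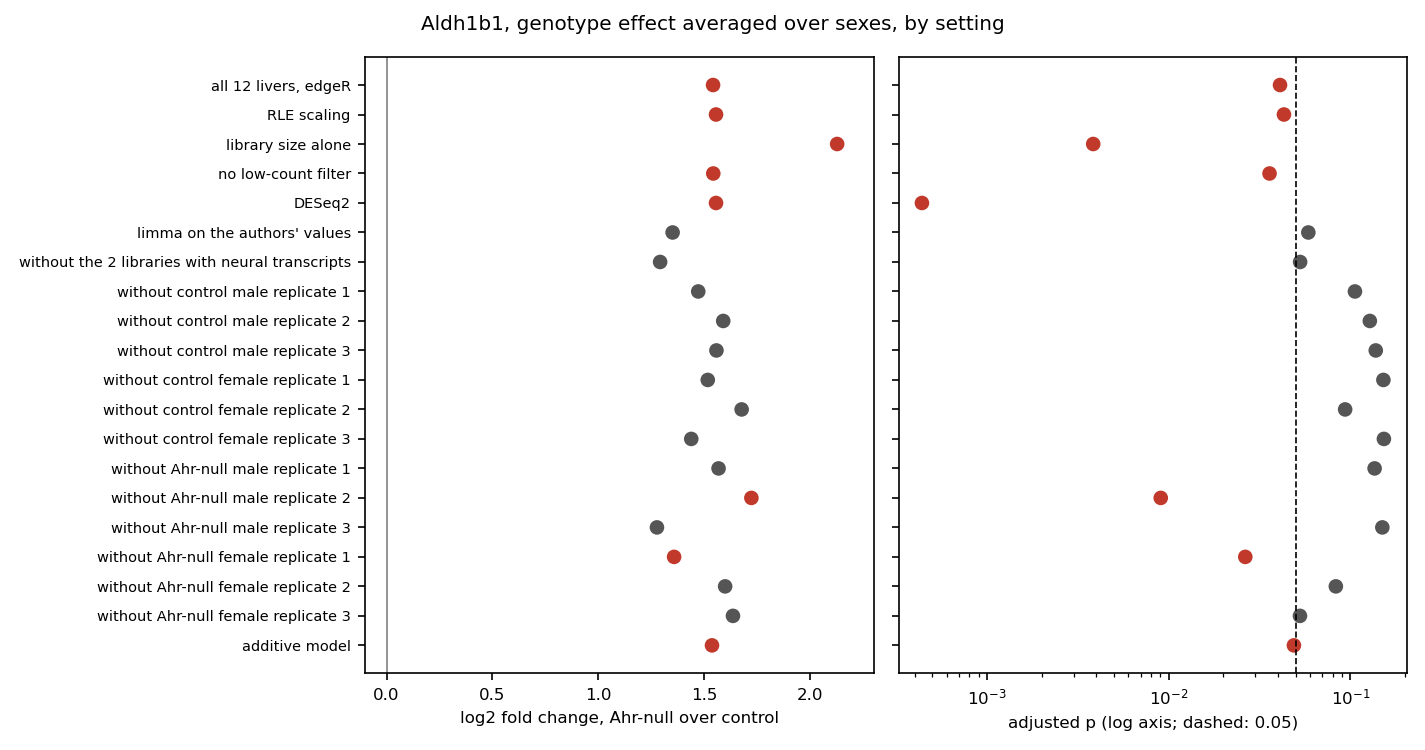
Genotype effect on Aldh1b1 averaged over sexes under each setting: log2 fold change of Ahr-null over control (left) and adjusted p on a log axis (right), with red points under 0.05. All fold changes lie between 1.277 and 2.13, and the adjusted p falls on both sides of the dashed line.

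The other mitochondrial members did not pass the test. Aldh2 had 425, 531 and 599 CPM in Ahr-null males, against 577, 732 and 519.8 CPM in control males. It had 309.8, 408 and 527 CPM in Ahr-null females, against 846, 524 and 879 CPM in control females. The groups overlapped in both sexes, and the averaged log2 fold change was -0.54 ± 0.23 (adjusted p = 0.288).

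Aldh4a1, the dehydrogenase that completes proline breakdown, ranged from 70.1 to 133.9 CPM in Ahr-null livers of both sexes, against 83.2 to 95.1 CPM in control livers, with an averaged log2 fold change of 0.14 ± 0.21 (adjusted p = 0.82). Of the 50-base windows along its transcript, 45.0% also occur in Gm21969, an overlapping gene model on the same strand, so its count is uncertain. Aldh6a1, the methylmalonate semialdehyde dehydrogenase of valine breakdown, had 43.9, 58.6 and 67.8 CPM in Ahr-null males, against 85.7, 89.2 and 74.8 CPM in control males. It had 171, 25.6 and 47.9 CPM in Ahr-null females, against 60.6, 97.8 and 94.3 CPM in control females. All 3 Ahr-null males lay below the control males, and in females the Ahr-null livers included both the highest and the lowest value. Its averaged log2 fold change was -0.30 ± 0.37 (adjusted p = 0.76). Without Ahr-null female replicate 1 the log2 fold change was -0.86 (adjusted p = 0.0308), which passes the threshold. An opposite-strand gene, Bbof1, covers 18.64% of the Aldh6a1 exon bases, and the strand setting of the counts is not given in the sources used here.

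Aldh8a1, the aminomuconate semialdehyde dehydrogenase of tryptophan breakdown, had 112, 170.2 and 151 CPM in Ahr-null males, against 195, 179 and 182 CPM in control males. It had 149, 110.3 and 140.2 CPM in Ahr-null females, against 202, 182 and 223 CPM in control females. Both Ahr-null groups lay wholly below the controls of their sex. The averaged log2 fold change was -0.48 ± 0.19 and did not pass the test (adjusted p = 0.237), although DESeq2 gave an adjusted p of 0.0461 at -0.47. Groups that do not overlap in the same direction in both sexes were found for 2.9% of all genes tested, and among the members for Aldh1b1 and Aldh8a1.

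Among the cytosolic members, Aldh1a1, which makes retinoic acid from retinaldehyde, had 85.2, 62.8 and 203 CPM in Ahr-null males, against 128, 171 and 166 CPM in control males. It had 119.9, 39.3 and 41.9 CPM in Ahr-null females, against 115, 160.2 and 123 CPM in control females. In each sex 2 Ahr-null livers lay below all controls, and the remaining one lay among or above them. The averaged log2 fold change was -0.69 ± 0.34 (adjusted p = 0.36). Without Ahr-null female replicate 1 it was -1.04 and passed the threshold (adjusted p = 0.0447).

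Aldh1a7, the neighbouring paralogue of Aldh1a1 in the mouse, had 40.6, 19.9 and 81.9 CPM in Ahr-null males, against 31.2, 45.7 and 38.9 CPM in control males. It had 54.0, 19.1 and 17.6 CPM in Ahr-null females, against 22.7, 28.7 and 23.1 CPM in control females. The Ahr-null values spread on both sides of the controls, and the averaged log2 fold change was 0.29 ± 0.35 (adjusted p = 0.75). It was -0.11 without the 2 libraries with neural transcripts. The pair shares 6.54% of the 50-base windows of Aldh1a1 and 7.49% of those of Aldh1a7, so that some reads could be assigned to either gene.

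Aldh1l1 ranged from 303.9 to 372 CPM in Ahr-null males, against 284 to 338 CPM in control males. It had 271, 201 and 255 CPM in Ahr-null females, against 308, 318 and 320.9 CPM in control females. The female groups did not overlap, and the log2 fold change in females was -0.38 ± 0.26 (adjusted p = 0.53). In males it was 0.11 ± 0.26, and the averaged log2 fold change was -0.14 ± 0.18 (adjusted p = 0.79). Aldh9a1, the trimethylaminobutyraldehyde dehydrogenase of carnitine synthesis, ranged from 48.7 to 146 CPM in Ahr-null livers, against 63.0 to 95.0 CPM in control livers. Its highest value was in Ahr-null female replicate 1, and the averaged log2 fold change was 0.07 ± 0.25 (adjusted p = 0.93). Aldh3a2, the membrane-bound dehydrogenase of fatty aldehydes, ranged from 56.8 to 239.6 CPM in Ahr-null livers, against 125 to 201 CPM in control livers. It had an averaged log2 fold change of -0.10 ± 0.32 (adjusted p = 0.93), with its lowest value in Ahr-null male replicate 2 and its highest in Ahr-null female replicate 1.

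**Figure D4:**
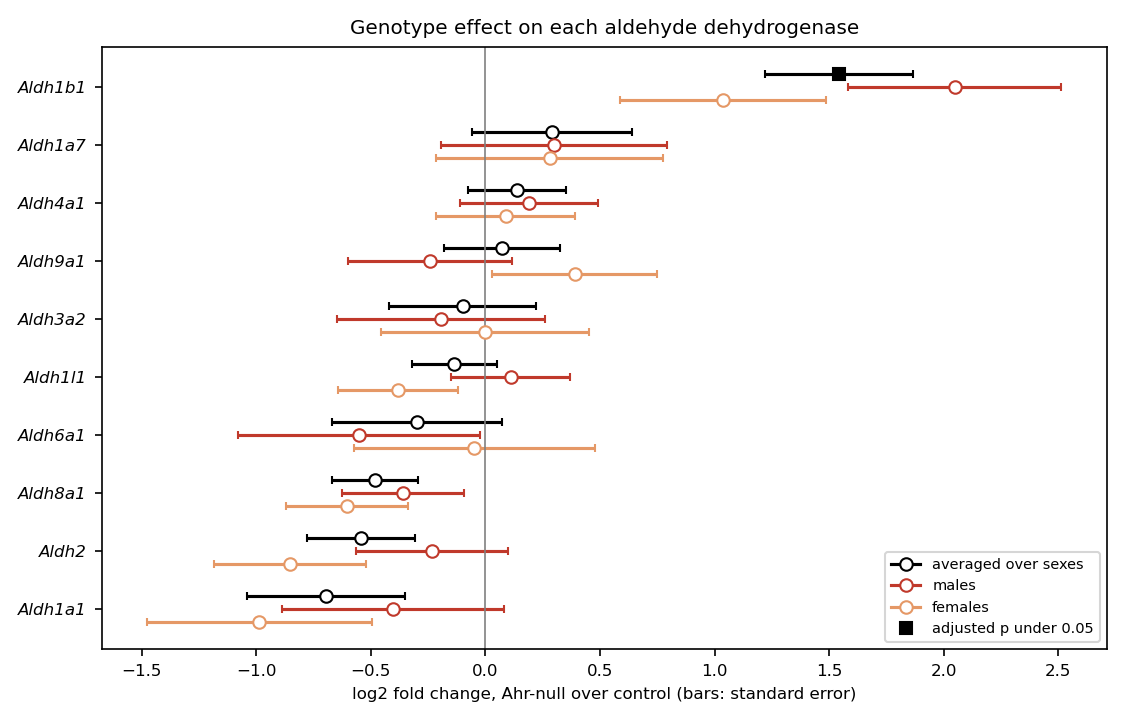
Log2 fold change of Ahr-null over control for each member, averaged over sexes and in each sex, with standard errors as bars. The square marks the Aldh1b1 value of 1.54, the only one with an adjusted p under 0.05.

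Within single sexes none of the 10 members was called, where 0.0367% of all genes were called in males and 0.161% in females. At an unadjusted p under 0.05, 1 member stood in males (5.81% of all genes) and 3 in females (14.4% of all genes). Aldh1b1 had a log2 fold change of 2.05 ± 0.46 in males (adjusted p = 0.26; DESeq2 adjusted p = 0.00613) and 1.04 ± 0.45 in females (adjusted p = 0.32). The difference between the male and the female effect was 1.01 ± 0.63 (adjusted p = 0.999), and none of the members was called for it, against 0.00733% of all genes. None had an unadjusted p under 0.05 for it either, where 4.6% of all genes did, and DESeq2 called none. Groups without overlap were found in males for Aldh1b1 (higher) and for Aldh6a1 and Aldh8a1 (lower), where 13.9% of all genes had them (6.55% higher and 7.34% lower). In females they were found for Aldh1b1 (higher) and for Aldh1l1 and Aldh8a1 (lower), where 19.1% of all genes had them (9.22% higher and 9.86% lower). DESeq2 called none in females.

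Males and females of 1 genotype were compared as male minus female. None of the members was called, where 0.279% of all genes were called in Ahr-null livers and 0.352% in control livers, and DESeq2 called none. At an unadjusted p under 0.05 there was no member in Ahr-null livers (8.68% of all genes) and 1 in control livers, Aldh1b1 (5.79% of all genes). Aldh1b1 averaged 40.1 ± 24.3 CPM in Ahr-null males and 49.6 ± 21.2 CPM in Ahr-null females (log2 difference -0.30 ± 0.44, adjusted p = 0.90). In controls it averaged 9.70 ± 1.76 CPM in males and 24.2 ± 8.06 CPM in females (log2 difference -1.32 ± 0.46, adjusted p = 0.60), and the control males all lay below the control females. Groups without overlap were also found for Aldh1a7 and Aldh9a1 in controls and for Aldh1l1 in Ahr-null livers, each higher in males. Such groups occurred for 18.6% of all genes in controls (9.38% higher and 9.19% lower in males) and 11.2% in Ahr-null livers (4.83% higher and 6.38% lower in males).

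Of the 11 other Aldh genes, 8 were tested and none was called for genotype or sex in edgeR. At an unadjusted p under 0.05, 1 stood for the averaged genotype effect (15.3% of all genes), 2 in males (5.81%), 1 in females (14.4%) and 1 for the difference between the male and the female effect (4.6%). For sex, 4 stood in Ahr-null livers (8.68%) and 3 in controls (5.79%). Aldh18a1, which makes the pyrroline precursor of proline, had 4.22, 4.11 and 3.28 CPM in Ahr-null males, against 2.11, 2.48 and 2.04 CPM in control males. It had 5.51, 5.65 and 3.20 CPM in Ahr-null females, against 2.55, 2.62 and 1.92 CPM in control females. The groups did not overlap in either sex, and the averaged log2 fold change was 0.91 ± 0.22 (adjusted p = 0.0678; DESeq2 adjusted p = 0.00727; 0.0387 without Ahr-null female replicate 1). Leaving out female replicate 3 of the Ahr-null livers also gave a call (adjusted p = 0.0451 in edgeR), as did scaling by library size alone (1.43, adjusted p = 0.0136). Aldh3b3 had 0.32, 0 and 0.59 CPM in Ahr-null males and 1.38, 10.9 and 15.02 CPM in Ahr-null females (log2 difference -4.73 ± 0.95, adjusted p = 0.0712). In controls it had 0, 0.39 and 0.25 CPM in males and 5.32, 6.66 and 1.998 CPM in females (log2 difference -4.35 ± 1.04, adjusted p = 0.17). DESeq2 called Aldh3b3 in both, with adjusted p of 2.76e-05 in Ahr-null livers and 0.00107 in controls. In edgeR it was called without Ahr-null female replicate 1 (adjusted p of 0.00367 in Ahr-null livers and 0.0152 in controls) and without both libraries with neural transcripts (0.00173 and 0.0423).

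Aldh3b2, the neighbour of Aldh3b3, had at most 0.20 CPM in any male liver and 0.18 to 4.87 CPM in females. Averaged log2 fold changes were 0.22 ± 0.24 for Aldh3b1, -0.16 ± 0.19 for Aldh5a1, 0.01 ± 0.21 for Aldh7a1, -0.23 ± 0.18 for Aldh16a1 and 0.80 ± 0.46 for Aldh1a3, with adjusted p from 0.43 to 0.99. Aldh1a3 had 1.97 ± 0.61 in males (adjusted p = 0.47) and -0.36 ± 0.67 in females (adjusted p = 0.84). The difference between its male and female effect was 2.33 ± 0.91 (adjusted p = 0.999). Aldh1a3 rested on 69 counts in all 12 livers. Aldh1a2 had 35 counts and Aldh1l2 had 19 counts in all, too few to be tested. Aldh3a1 had 4 counts in all, and no library had more than 2.

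The enzymes that act before or after the members were counted in 8 lists. Of 25 folate and one-carbon genes, 1 rose and none fell, where 1.06% of all genes were called, and 6 had an unadjusted p under 0.05 (15.3% of all genes). Their median log2 fold change was 0.16. Mthfd1l, a mitochondrial formyltetrahydrofolate synthetase, had 2.64, 0.70 and 2.01 CPM in Ahr-null males, against 0.67, 0.85 and 1.27 CPM in control males. It had 2.11, 6.19 and 4.53 CPM in Ahr-null females, against 0.28, 0.11 and 0.50 CPM in control females. The female groups did not overlap, the male groups did, and the averaged log2 fold change was 2.37 ± 0.43 (adjusted p = 0.0226). In females it was 3.79 ± 0.65 (adjusted p = 0.0429). Control females had 4, 1 and 6 counts of Mthfd1l, and limma on the authors' values gave 1.23 for the averaged effect and 1.998 for females.

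Of 9 proline genes, 1 fell and none rose, and 3 had an unadjusted p under 0.05, with a median of 0.12. Prodh, proline dehydrogenase, which acts before Aldh4a1, had 75.9, 133.8 and 53.8 CPM in Ahr-null males, against 202, 195 and 148 CPM in control males. It had 50.2, 45.2 and 67.8 CPM in Ahr-null females, against 192, 141 and 173 CPM in control females. All Ahr-null livers lay below the controls of their sex, and the averaged log2 fold change was -1.34 ± 0.24 (adjusted p = 0.0226). The Mthfd1l and Prodh calls were each lost when any 1 of the 6 control livers, Ahr-null male replicate 1, Ahr-null male replicate 3 or Ahr-null female replicate 2 was left out, with adjusted p up to 0.11. That of Mthfd1l was also lost without Ahr-null female replicate 3 and in the additive model (adjusted p = 0.0916). The call of Mthfd1l in females was lost in 11 of 19 alternatives, with adjusted p up to 0.332.

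In the other 6 lists none of the tested genes was called for the averaged genotype effect in edgeR. Genes with an unadjusted p under 0.05 numbered 4 of 9 for ethanol and acetaldehyde, 3 of 23 for branched-chain amino acids, 5 of 12 for kynurenine, 3 of 8 for carnitine, 3 of 15 for fatty aldehydes and 4 of 13 for other aldehyde clearance, where 15.3% of all genes stood. The 12 genes named below had the 2 smallest p of each list for this effect, so calls among them were favoured by that choice. Of them, DESeq2 called Adh4, Cyp2e1, Acmsd, Qprt, Slc25a20 and Gsta1, with adjusted p from 0.000101 to 0.0216. Without Ahr-null female replicate 1, edgeR called Adh4, Cyp2e1, Hsd17b10, Acmsd and Slc25a20, with adjusted p from 0.0194 to 0.038. Over all genes, DESeq2 called 664 of 13641, and edgeR without that liver called 663 of 13877. The medians were -0.16 for 9 ethanol and acetaldehyde genes, -0.15 for 23 branched-chain amino acid genes, -0.21 for 12 kynurenine genes, 0.19 for 8 carnitine genes, -0.03 for 15 fatty aldehyde genes and 0.27 for 13 genes of other aldehyde clearance. Adh4, an alcohol dehydrogenase, had a log2 fold change of -0.78 ± 0.19 (adjusted p = 0.0710), and Cyp2e1, an ethanol-oxidising cytochrome, -1.23 ± 0.32 (adjusted p = 0.0940). Acmsd, which diverts an intermediate of the kynurenine pathway towards Aldh8a1, had 1.08 ± 0.25 (adjusted p = 0.0619), and Qprt, which turns quinolinate towards NAD, 0.75 ± 0.21 (adjusted p = 0.1245).

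Slc25a20, the mitochondrial carnitine carrier, had -0.75 ± 0.17 (adjusted p = 0.0589), and Crot, a carnitine octanoyltransferase, 0.80 ± 0.27 (adjusted p = 0.185). In the breakdown of branched-chain amino acids, Hsd17b10 had -0.58 ± 0.20 and Ivd -0.50 ± 0.21 (adjusted p = 0.19 and 0.27). Hsd17b10 had 31.5, 32.5 and 48.1 CPM in Ahr-null males, against 78.05, 92.0 and 76.6 CPM in control males. The female groups overlapped, with 52.0, 26.9 and 41.3 CPM in Ahr-null livers, against 42.2, 41.1 and 38.5 CPM in control livers. Among fatty aldehyde genes, Sgpl1, the sphingosine phosphate lyase, had -0.51 ± 0.18 and Sphk2, a sphingosine kinase, -0.53 ± 0.18 (adjusted p = 0.19 each). Gsta1, a glutathione transferase, had 2.87 ± 0.66 (adjusted p = 0.0595), and Akr1b7, an aldo-keto reductase, 1.88 ± 0.69 (adjusted p = 0.21). Akr1b7 had 60, 24 and 19 counts in Ahr-null females and at most 7 counts in any liver of the other groups. By sex, 2 fatty acid hydroxylases of near-identical sequence, Cyp4a12a and Cyp4a12b, were higher in males. The log2 differences were 3.63 ± 0.57 and 4.03 ± 0.62 in Ahr-null livers (adjusted p = 0.0170 and 0.0167) and 6.27 ± 0.65 and 5.71 ± 0.68 in control livers (adjusted p = 0.00055 and 0.0014).

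**Figure D5:**
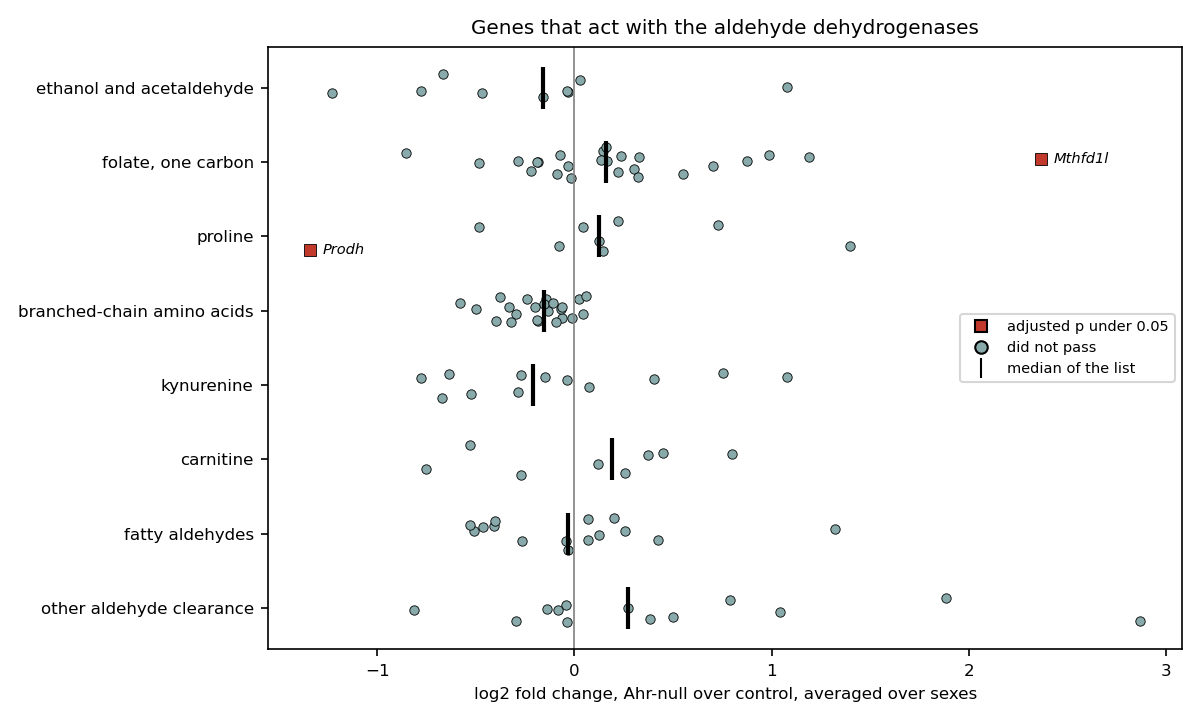
Log2 fold change of Ahr-null over control, averaged over sexes, for each tested gene of 8 lists of enzymes and carriers that act with the aldehyde dehydrogenases, with a bar at each list's median. Squares mark Mthfd1l at 2.37 and Prodh at -1.34, the genes with an adjusted p under 0.05.

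The genes whose pattern over the 12 livers was most like that of Aldh1b1 were Sdc1, Slc39a4 and S100a11, out of 10555 candidates. Likeness was the root mean square difference of log2 CPM after centring each gene on its mean, and it was 0.44, 0.47 and 0.50, against an SD of 1 for Aldh1b1 itself. Sdc1, the cell-surface proteoglycan syndecan, had 35.0, 31.1 and 97.5 CPM in Ahr-null males, against 17.9, 23.9 and 22.1 CPM in control males. It had 148, 38.3 and 43.6 CPM in Ahr-null females, against 37.3, 39.9 and 29.1 CPM in control females. Without the 2 libraries with neural transcripts the same genes ranked 10, 8 and 14.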

How the data were processed

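RNA-seq counts of 12 mouse livers were used. The authors deposited raw whole-number counts per gene, and a second table of variance-stabilised values, which the authors' naming ascribes to DESeq2 and which run close to log2. The submitters' processing notes list build GRCm38 and, with no roles or order, STAR 2.7.8, FastQC 0.11.8, DESeq2 1.28.1 and Trim Galore 0.6.5. How reads were assigned to genes, and whether strand was used, is not given in the sources used here. Genes kept by filterByExpr (13641) were scaled by TMM and tested with edgeR 4.0.16 in R 4.3.3: a robust quasi-likelihood model with 4 group means over all livers (8 residual degrees of freedom), two-sided, with Benjamini-Hochberg adjustment over all genes and calls at 0.05. Each standard error is the fold change divided by the root of F. The method was tested on simulated counts. Alternatives included DESeq2 1.42.0 and limma 3.58.1.

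Groups came from the labels; replicate numbers follow accession order and pair nothing. Each liver was taken as 1 mouse, and p-values rest on the spread among these livers. Replicate pairs differed by more than sampling noise. Named were the members, the other Aldh genes with counts, the called genes of each pathway list or else the 2 with the smallest p, 3 genes checking the genotype, and the 3 genes most like each called member (mean log2 CPM of at least 1). One further pathway list is not reported here. The members and lists were chosen with earlier results of these data known. No genome sequence or protein table was used here.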

Additional observations from a re-analysis of the deposited data

How the results depend on the processing

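Of the 190 values of members averaged over sexes, 162 kept their direction and their side of the threshold, as did 181 of 190 in males and 170 of 190 in females. The number of members called for the averaged effect was 1; it was 2 with DESeq2, 0 with limma on the authors' values, 0 without the 2 libraries with neural transcripts, and 0 to 3 when single livers were left out. In males it was 0, and 1 with DESeq2. The causes were not tested.

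Scaling by library size alone gave a median of all genes of 0.53, against 0.04, and the split of called genes became 986 higher and 67 lower, against 72 and 72. Under it the averaged values became 0.35 for Aldh1l1, 0.47 for Aldh3a2 and 0.21 for Aldh6a1, and Sgpl1 0.006, while Aldh8a1 was -0.014, Aldh2 -0.077 and Aldh1a1 -0.13. In males they became 0.15 for Aldh1a1, 0.25 for Aldh2, 0.40 for Aldh3a2, 0.083 for Aldh8a1 and 0.26 for Aldh9a1. In females they became 0.13 for Aldh1l1, 0.55 for Aldh3a2 and 0.50 for Aldh6a1, and Aldh1b1 between Ahr-null sexes became 0.051. Aldh3a2 in females was 0.007 with RLE scaling and with DESeq2, and 0.014 in females alone. Averaged Aldh9a1 was -0.003 with limma. Without the 2 neural libraries, averaged values were -0.11 for Aldh1a7, -0.23 for Aldh9a1 and -0.004 for Ahr, female values -0.42 for Aldh1a7, -0.18 for Aldh4a1 and -0.19 for Aldh9a1, and Aldh1b1 between Ahr-null sexes was 0.12.

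With single livers left out, averaged values ran from -0.051 to 0.47 for Aldh1a7, -0.34 to 0.086 for Aldh3a2, -0.006 to 0.23 for Aldh4a1 and -0.21 to 0.21 for Aldh9a1. In males they ran from -0.35 to 0.67 for Aldh1a7, -0.50 to 0.19 for Aldh3a2 and -0.11 to 0.38 for Aldh4a1. In females they ran from -0.42 to 0.54 for Aldh1a7, -0.50 to 0.24 for Aldh3a2, -0.18 to 0.25 for Aldh4a1, -1.18 to 0.36 for Aldh6a1 and -0.19 to 0.66 for Aldh9a1. Aldh1b1 between Ahr-null sexes ran from -0.83 to 0.12.

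Over all genes, 144 were called for the averaged effect, against 664 with DESeq2, 1053 by library size, 432 without the 2 neural libraries and 6 to 663 with single livers left out. In males 5 were called, against 106 with DESeq2, 12 by library size, 9 with limma, 27 without the 2 neural libraries, 25 in males alone and 0 to 57 with single livers left out. In females 22 were called, against 491, 117, 45 and 235 in the first 4 of those settings, 3 in females alone and 3 to 153 with single livers left out. For the sex by genotype difference 1 was called, against 20 with DESeq2, 3 by library size, 4 with limma, 4 without the 2 neural libraries and 0 to 2 with single livers left out. Between sexes 38 were called in Ahr-null livers and 48 in controls, against 223 and 142 with DESeq2, 110 and 79 without the 2 neural libraries, and 11 to 90 and 19 to 101 with single livers left out. No paired analysis was possible because the labels give no replicate numbers shared between groups. Replicate pairs differed by a chi-square of 22.2 to 248 per degree of freedom, so none was counted as 1 library; no member had fewer than 92 counts in a library.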
